A study of Mus musculus with 120 samples.

Results

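The genes described here encode the motors that walk along microtubules: the kinesins with their light chains, the cytoplasmic dyneins with their light chains, and dynactin, the complex that couples dynein to cargo. They were taken by symbol (Kif and Kifc followed by a digit, Klc1 to Klc4, Dync1 and Dync2, Dynll, Dynlr and Dynlt, and Dctn1 to Dctn6), which gave 82 of the 52276 named genes of each count table. By known role 14 were kinesins of axonal transport, 4 kinesin light chains, 13 mitotic kinesins, 5 subunits of cytoplasmic dynein 1, 4 of the ciliary cytoplasmic dynein 2, 15 dynein light chains, 6 dynactin subunits, 16 other kinesins, and 5 pseudogenes or antisense genes. After a filter on low counts 70 were tested in DRG and 69 in skin. Of all 82, 4 had no count in any DRG library and 3 none in any skin library.

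Kinesins mostly carry cargo towards the plus end of microtubules, which in an axon lies at the terminal, and dynein with dynactin carries cargo back to the cell body. Sensory neurons of the dorsal root ganglion (DRG) have the longest axons of the body and depend on both. Another set of kinesins builds the mitotic spindle and separates the daughter cells, and is expressed in dividing cells such as those of the basal epidermis. Paclitaxel binds and stabilises the microtubules that both sets of motors use.

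Libraries came from DRG and plantar skin of male C57B6/J mice, 6 weeks old at the injections, given paclitaxel (4 mg/kg, intraperitoneal) on days 0, 2, 4 and 6 or, in the same way, the vehicle, a Cremophor and ethanol mixture in saline. Mice taken on day 4 had not had the injection of day 6, so a mean over the days joins unequal numbers of doses. There were 4 paclitaxel and 4 vehicle mice on each of day 4 (onset of pain), day 7 (maximal pain), day 11 (beginning of resolution) and day 23 (recovery), 32 mice per tissue, and different mice at each day. DRG of the left L3 to L5 segments and skin of the left hind paw were taken, and their RNA was extracted with different kits, so tissue and extraction cannot be told apart. Mice were housed 4 to a cage, which may coincide with the groups. One DRG library, DRG09, carries conflicting labels in its deposited runs. The paper lists both runs as paclitaxel, day 4, and the library is used so here.

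DRG libraries held 22146536 to 52904112 counts and skin libraries 24114230 to 63872693, and the share of counts from motor genes was 1.27 to 1.69% in DRG and 0.404 to 0.448% in skin. The summed sensory neuron markers were at 12303 to 28161 CPM (counts scaled to the library total and its TMM factor) in DRG and 64.6 to 122 CPM in skin, and the suprabasal keratinocyte markers at 4.71 to 52.8 CPM in DRG and 47914 to 102239 CPM in skin. DRG09 and the vehicle library DRG34 (day 11) stood apart from the other DRG libraries: they had the lowest mitochondrial shares (1.80 and 1.77%), the highest summed neuronal markers (26079 and 28161 CPM) and the lowest summed Schwann cell markers (7083 and 8463 CPM). In 11 of the 32 DRG libraries the suprabasal keratinocyte gene Krt10 was at 18.1 to 29.6 CPM, where the other 21 had 1.68 to 4.58 CPM. They were 0, 2, 2 and 2 of the paclitaxel libraries and 2, 1, 1 and 1 of the vehicle libraries on days 4, 7, 11 and 23. Skeletal muscle markers varied most, summing to 52.3 to 49971 CPM in skin, and they are given beside the skin results.

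The first comparison asked which motors each tissue uses, in the vehicle mice (16 DRG and 16 skin libraries, scaled together). Most axonal transport kinesins were higher in DRG and all mitotic kinesins were higher in skin. Within skin the transport kinesins still summed to more, with a median of 1372 CPM over all 32 libraries, against 212 CPM for the mitotic ones. In such bulk samples fewer cells of a type and less RNA per cell cannot be told apart. Of the 70 motor genes tested 41 were higher in DRG and 25 lower, where 44.7% of the 19946 genes tested were higher in DRG and 43% lower (edgeR's quasi-likelihood test, Benjamini-Hochberg adjusted p under 0.05). Since most genes of any kind differed between the tissues, the directions by role say more than the totals. All 13 mitotic kinesins were lower in DRG (median log2 difference -4.26, DRG minus skin), 12 of the 14 axonal transport kinesins were higher (median 2.64), and so were all 5 subunits of cytoplasmic dynein 1 (median 1.17) and all 6 dynactin subunits (median 0.90). The other roles were mixed: 3 kinesin light chains were higher and 1 lower, 5 dynein light chains higher and 3 lower of the 10 tested, 3 dynein 2 subunits higher and 1 lower, and 7 other kinesins higher and 5 lower of 14.

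The largest differences in favour of DRG lay in neuronal motors. Dync1i1, an intermediate chain of dynein 1, averaged 118 ± 27.6 CPM in DRG and 0.0911 ± 0.104 CPM in skin (SD, n = 16 each), where 6 of the 16 skin libraries had no count (log2 difference 10.28, SE 0.26). Kif5c, a heavy chain of conventional kinesin, averaged 909 ± 63.4 CPM in DRG and 0.978 ± 0.442 CPM in skin (9.89, SE 0.17). Kif1a, the kinesin-3 motor of synaptic vesicle precursors, averaged 1903 ± 291 CPM in DRG and 4.46 ± 1.88 CPM in skin (8.75, SE 0.21). Kif5a, the neuronal heavy chain of conventional kinesin, averaged 1144 ± 150 CPM in DRG and 8.10 ± 1.15 CPM in skin (7.14, SE 0.097). No DRG library of these 4 genes overlapped with a skin library. Dynlt5, a Tctex1-type light chain, had 1109 counts over the 16 DRG libraries and 1 count over the 16 skin libraries, which scaled to the library totals is a 1024-fold ratio with a 95% exact interval of 184 to 40500 that covers counting error only.

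In the other direction stood Klc3, a kinesin light chain, with 1.30 ± 0.453 CPM in DRG and 221 ± 27.96 CPM in skin (log2 difference -7.44, SE 0.12), the only kinesin light chain that was lower in DRG. Kif18b, a kinesin-8 of astral microtubules, averaged 0.166 ± 0.184 CPM in DRG and 14.5 ± 3.78 CPM in skin (-6.71, SE 0.30). Kif2c (MCAK), which depolymerises microtubules at centromeres, averaged 0.408 ± 0.260 CPM in DRG and 13.9 ± 4.48 CPM in skin (-5.08, SE 0.28). Kif4, a chromokinesin, averaged 0.580 ± 0.184 CPM in DRG and 15.6 ± 3.10 CPM in skin (-4.76, SE 0.13). Kif28, a kinesin-3, had 1 count over the 16 DRG libraries and 118 over the 16 skin libraries, a 128-fold higher value in skin with an exact interval of 22.5 to 5088, and 4 skin libraries had no count. The axonal transport kinesins that were lower in DRG were Kif1c, at 156 ± 37.9 CPM in DRG and 965 ± 113 CPM in skin (-2.64, SE 0.093), and Kif13a, at 58.8 ± 7.48 CPM in DRG and 71.0 ± 13.8 CPM in skin (-0.27, SE 0.074), where libraries of the tissues overlapped.

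**Figure D1:**
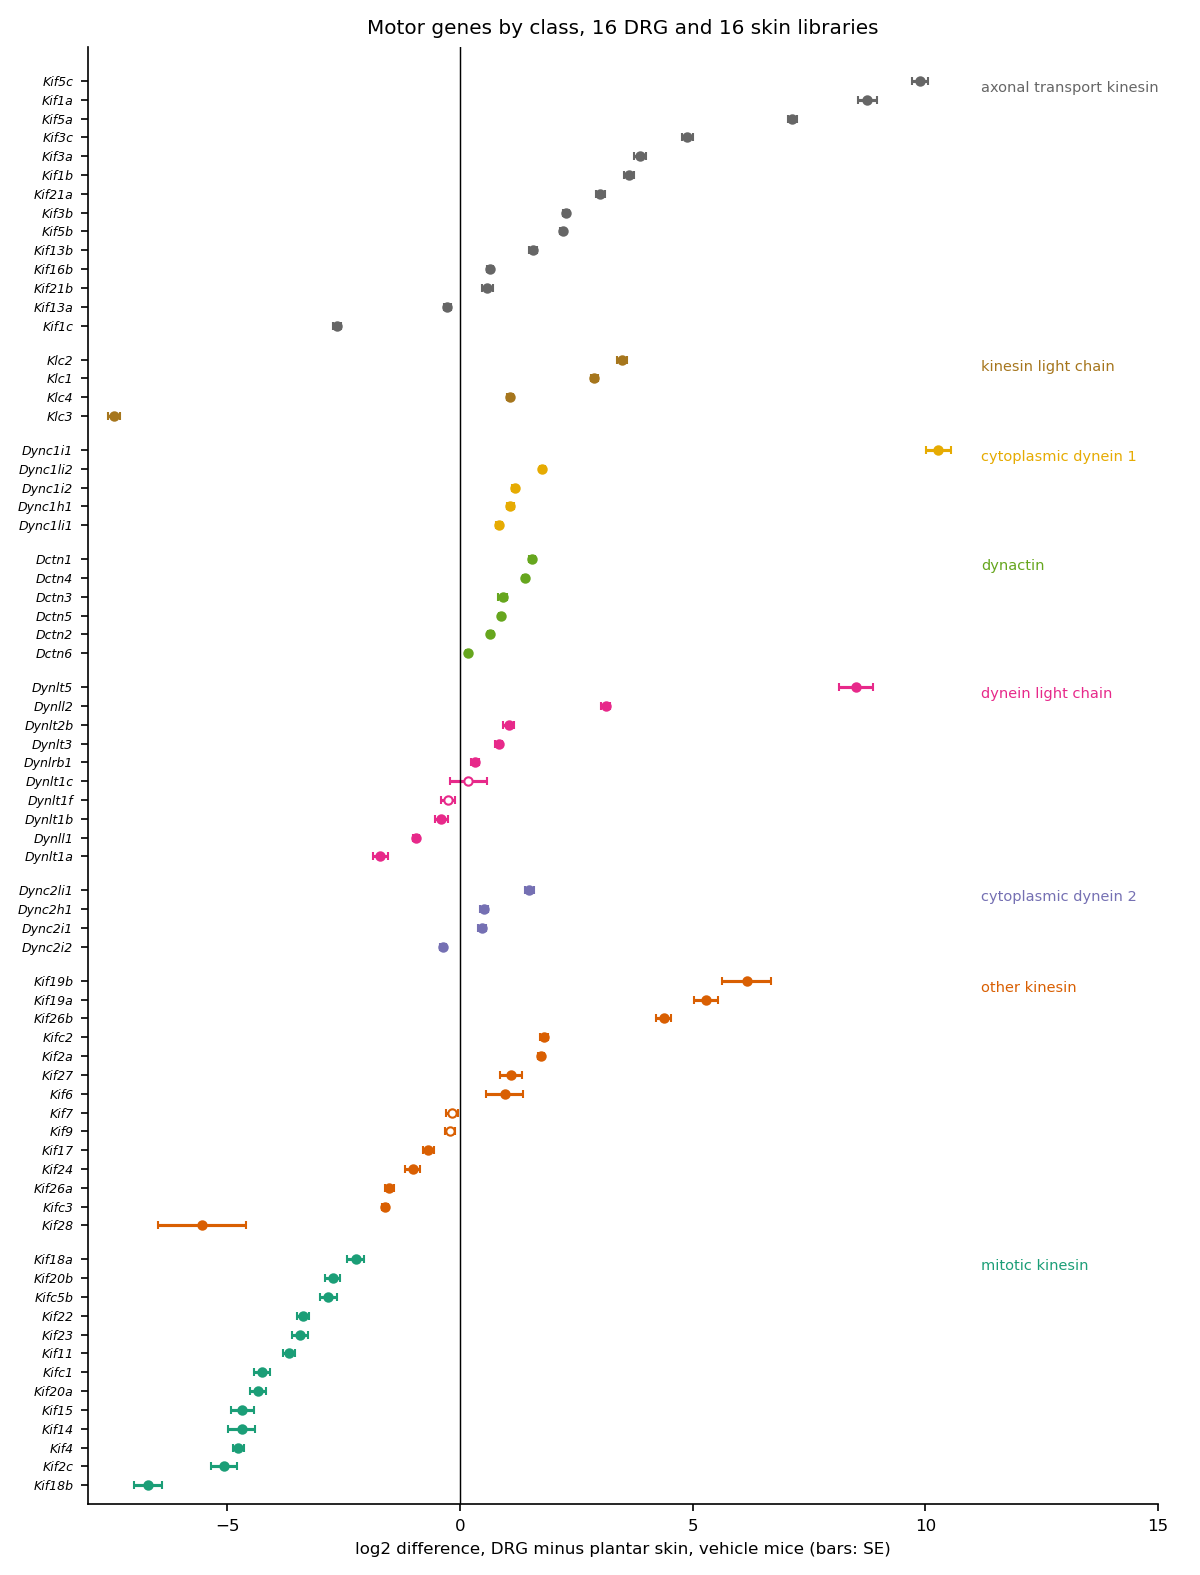
Log2 difference in level between DRG and plantar skin of vehicle mice (x axis, points, with SE bars) for each motor gene tested, grouped by role. Filled points had an adjusted p under 0.05. The 13 mitotic kinesins all lie left of 0, with a median of -4.26, and 12 of 14 axonal transport kinesins lie right of it, with a median of 2.64.

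Levels between genes were compared per kilobase of exon, which was known for 73 of the 82 genes. In DRG of vehicle mice the highest was Klc1, with a median of 313 CPM per kb (266 to 524, n = 16), followed by the dynein light chain Dynll2 at 255 (216 to 284). Kif1a at 212 CPM per kb (146 to 261), the dynein light chain Dynlrb1 at 202 (167 to 305), Kif5a at 173 (132 to 213), Kif5c at 137 (117 to 154) and the light chain Dynlt3 at 120 (99.6 to 138) came next, and the ranges of neighbours in this order overlapped. Kif21a, Kif1b and Kif5b, further motors of axonal cargo, had 113, 80.1 and 73.8 CPM per kb. Of the dynactin subunits, Dctn1 (p150Glued, which binds the microtubule) had 98.9 CPM per kb, Dctn3 96.4 and Dctn2 (dynamitin) 68.3. The dynein heavy chain Dync1h1 had 45.4 CPM per kb, and its light intermediate chains Dync1li2 and Dync1li1 had 58.5 and 44.6. The other kinesin light chains in DRG were Klc2 at 84.5 and Klc4 at 14.2 CPM per kb, and the ciliary dynein 2 heavy chain Dync2h1 was at 0.821. Kif19a (16.7), Kif2a (13.8) and Kifc2 (12.99) led the other kinesins. The mitotic kinesins of DRG were near the bottom, the highest being Kif22, a chromokinesin, at 0.489 CPM per kb (0.208 to 0.699), then Kif23 at 0.3797 and Kif20a at 0.330.

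Skin of vehicle mice had a different order. The highest were Dynlrb1, with a median of 156 CPM per kb (131 to 206), Kif1c, which carries dense core vesicles and integrins, at 124 (104 to 152), and the dynein light chain Dynll1 at 113 (81.9 to 142). Then came Klc3 at 79.2 CPM per kb (61.8 to 94.97), of whose exon bases 28.1% lie under Ercc2 on the opposite strand, and Dynlt3 at 62.6. Neighbours among these 5 had overlapping ranges. The dynactin subunits Dctn3, Dctn2 and Dctn1 stood at 49.6, 40.7 and 31.3 CPM per kb, Klc1 at 38.9, Klc2 at 6.50, and the dynein subunits Dync1li1, Dync1h1 and Dync1li2 at 22.8, 19.2 and 15.7. Of the other transport motors, Kif5b was at 14.2 and Kif21a at 12.2 CPM per kb, and Kifc3 (16.0), Kif2a (3.68) and Kifc2 (3.304) led the other kinesins. The mitotic kinesins Kif20a, Kif22 and Kifc1, at 6.62, 4.42 and 4.39 CPM per kb, led their class. Dync2li1 and Dync2h1 of dynein 2 were at 2.75 and 0.511.

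Paclitaxel was then compared with vehicle at each day, in DRG first. No motor gene passed the threshold in DRG on any day. With edgeR 0 of 70 were called on day 4, where 0% of the 18709 genes tested were called, 0 on day 7 (0.0107% of all genes), 0 on day 11 (0%) and 0 on day 23 (0.0214%). The mean of the 4 day effects called 0 motor genes, against 0.139% of all genes, and the test of whether the effect differed between days called 0, as for all genes (0%). At an unadjusted p under 0.05 there were 3, 8, 14 and 3 motor genes on days 4, 7, 11 and 23, 3 in the mean and 9 in the difference between days, out of 70. Of all genes tested 5.44, 4.28, 13.4 and 4.88% had such a p on those days, 4.88% in the mean and 8.89% in the difference between days. DESeq2 and limma also called 0 in each of these comparisons that they were run on. The mean effect of the 14 axonal transport kinesins lay between -0.014 and 0.11 on the log2 scale, and their 95% intervals (1.96 SE each way) reached from -0.22 to 0.29. By role the class medians of the mean effect were 0.015 for the axonal transport kinesins, -0.049 for the kinesin light chains, -0.015 for dynein 1, -0.035 for dynactin and 0.062 for the mitotic kinesins, beside -0.0066 over all genes tested. The mitotic kinesins summed to only 278 to 806 counts per DRG library, against 4040 to 19935 per skin library, so their changes in DRG were measured with less precision.

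Kif1a (chr1:93015464-93101951 on GRCm38, -, a build used for all gene positions here) carried 1723, 1976, 1876 and 2138 CPM in paclitaxel DRG on day 4, against 2011, 2317, 2433 and 2435 CPM in vehicle DRG. On day 7 it carried 2291, 2251, 2425 and 2387 CPM with paclitaxel, against 2240, 1681, 1938 and 2248 CPM with vehicle. The groups overlapped on day 4, and on day 7 the lowest paclitaxel mouse was just above the highest vehicle mouse. On day 11 the values were 2013, 2192, 2326 and 1863 CPM with paclitaxel, against 1891, 1873, 1776 and 1366 CPM with vehicle, and on day 23 they were 2286, 1868, 2024 and 2318 CPM, against 2307, 2262, 1913 and 1737 CPM, with overlap on both days. The fitted log2 fold changes of Kif1a were -0.25 (SE 0.11), 0.21 (SE 0.11), 0.28 (SE 0.11) and 0.048 (SE 0.11) on days 4, 7, 11 and 23, none of them called (edgeR adjusted p 0.894, 0.994, 0.307 and 0.9995), and the difference between days had an adjusted p of 0.501. In the 11 libraries with Krt10 above 10 CPM Kif1a had a median of 2318 CPM (1776 to 2435), against 1938 CPM (1366 to 2317) in the other 21, and those 11 were 2 vehicle libraries on day 4 and 2 paclitaxel and 1 vehicle library on each later day. Without them, an alternative chosen for Kif1a after seeing the data, its fold changes were -0.17, 0.21, 0.18 and -0.025 on days 4, 7, 11 and 23, none called, and 0 motor genes were called in all 6 comparisons. Dctn3 and Dynlrb1 were also higher in most of those 11 libraries than in most others. Levels of the other motor genes were not compared by this split here.

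Kif5a (chr10:127225696-127263348, -) differed little between the treatments. Its paclitaxel and vehicle means were 1192 ± 154 and 1229 ± 80.2 CPM on day 4, 1275 ± 86.4 and 1287 ± 100 CPM on day 7, 1192 ± 48.5 and 1193 ± 231 CPM on day 11, and 1214 ± 100 and 1159 ± 123.0 CPM on day 23 (SD, n = 4 each). The mean effect was 0.0017 (SE 0.054), with an interval of -0.10 to 0.11. The mean of Kif5c on day 4 was 951 ± 36.2 CPM in paclitaxel mice, against 1014 ± 32.4 CPM in vehicle mice, and on day 23 it was 1006 ± 57.3 CPM, against 993 ± 76.2 CPM, with a mean effect of 0.022 (SE 0.036). Over the 16 libraries of each treatment Kif5b, the ubiquitous conventional kinesin, had a median of 587 CPM (522 to 640) with paclitaxel and 589 CPM (501 to 643) with vehicle. Dync1h1 had 774 CPM (531 to 919) with paclitaxel and 711 CPM (507 to 943) with vehicle, and Dctn1 634 CPM (543 to 878) with paclitaxel and 644 CPM (523 to 883) with vehicle.

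**Figure D2:**
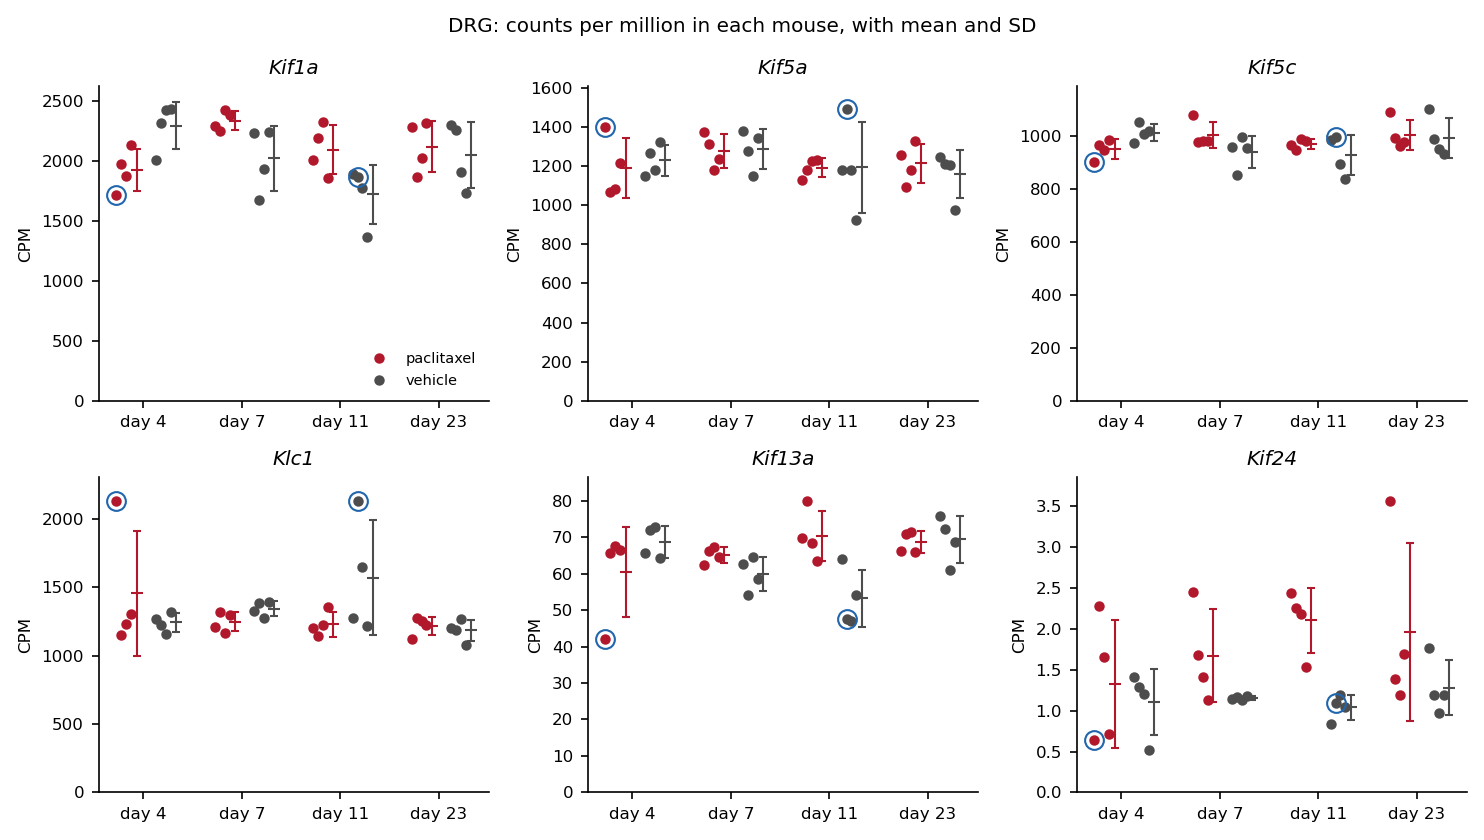
CPM (y axis) in each DRG library by day (x axis), paclitaxel in red and vehicle in grey, with mean and SD of 4 mice. The ringed libraries, DRG09 (paclitaxel, day 4) and DRG34 (vehicle, day 11), hold the highest Klc1 values, 2133 and 2134 CPM, and Kif5a and Kif5c overlap between the treatments on every day.

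Klc1, the main light chain of DRG, showed how far DRG09 and DRG34 stood from the rest. It had 2133, 1151, 1233 and 1309 CPM with paclitaxel on day 4, against 1271, 1228, 1157 and 1319 CPM with vehicle, the first value being DRG09. On day 11 it had 1202, 1143, 1222 and 1357 CPM with paclitaxel, against 1278, 2134, 1652 and 1220 CPM with vehicle, the second vehicle value being DRG34. The library that stood apart was thus in the paclitaxel group on day 4 and in the vehicle group on day 11, and the fold changes of Klc1, 0.23 and -0.35, ran in opposite directions on those days. All 4 light chains were positive on day 4 (median 0.23) and 3 of 4 negative on day 11 (median -0.30), and the 6 dynactin subunits were all negative on day 11 (median -0.20). The sensory neuron markers followed the same days, with 12 of 16 positive on day 4 and 0 of 16 on day 11, where all 10 Schwann cell markers and all 16 skeletal muscle markers were positive. Their part in the motor gene values was not tested. Without DRG09 and DRG34 the fold changes of Klc1 were -0.015 on day 4 and -0.17 on day 11, and the count of called motor genes was 0 in all 6 comparisons.

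Kif13a, a kinesin-3 motor of endosomes, had the smallest p of the axonal motors in DRG on day 11. On that day it had 69.7, 79.9, 68.3 and 63.4 CPM with paclitaxel, against 64.02, 47.6, 47.1 and 54.0 CPM with vehicle (log2 fold change 0.40, SE 0.11, edgeR adjusted p 0.218). Its day 4 values were 42.1, 65.6, 67.4 and 66.5 CPM with paclitaxel, the lowest being DRG09, against 65.6, 71.9, 72.7 and 64.2 CPM with vehicle. When DRG09 was left out, Kif13a was the 1 motor gene called on day 11, and the share of all genes called in that fit is not given here.

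The 5 motor genes with the smallest p in the mean over the days in DRG are given next, none of them called. Kif24, a kinesin-13 of the centriole, had the largest change of the 5 (mean log2 fold change 0.61, SE 0.19, edgeR adjusted p 0.433). On day 11 it had 2.44, 2.26, 2.18 and 1.53 CPM with paclitaxel, against 0.834, 1.10, 1.20 and 1.04 CPM with vehicle, with no overlap, and on day 7 it had 2.46, 1.68, 1.41 and 1.14 CPM, against 1.14, 1.17, 1.13 and 1.18 CPM. On day 4 it had 0.646, 2.28, 1.66 and 0.715 CPM with paclitaxel, against 1.41, 1.29, 1.20 and 0.517 CPM, and on day 23 it had 3.56, 1.39, 1.19 and 1.69 CPM, against 1.76, 1.19, 0.973 and 1.20 CPM. These are levels near 1 CPM, and the treatments overlapped on days 4, 7 and 23.

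The others among the 5 were a pair of dynein 2 subunits, Kif17 and Kif26a. Dync2i2, an intermediate chain of the ciliary dynein 2, had 10.9, 10.54, 8.79 and 12.6 CPM with paclitaxel on day 7, against 13.6, 14.04, 13.1 and 13.5 CPM with vehicle, all 4 below. Over the days its fold change was 0.31, -0.34, -0.29 and -0.31 on the log2 scale (mean -0.16, SE 0.070, edgeR adjusted p 0.965). Dync2h1, the heavy chain of the same motor, had values of the opposite sign, -0.27, 0.22, 0.27 and 0.29 on the same days (mean 0.13, SE 0.064, edgeR adjusted p 0.9999). Its day 11 values were 14.8, 14.6, 14.8 and 15.1 CPM with paclitaxel, against 11.6, 16.0, 11.17 and 10.2 CPM with vehicle, where DRG34 held the one vehicle value above the paclitaxel mice. Kif17, a kinesin-2 of cilia and dendrites, had 2.67, 3.19, 1.96 and 4.04 CPM with paclitaxel on day 7, against 4.72, 4.14, 4.32 and 3.80 CPM with vehicle (mean over the days -0.22, SE 0.10, with -0.073, -0.51, -0.30 and 0.0033 on days 4, 7, 11 and 23). Kif26a, a kinesin-11, had 11.4, 13.6, 9.24 and 7.40 CPM with paclitaxel on day 11, against 6.45, 6.33, 6.08 and 7.58 CPM with vehicle (mean over the days 0.19, SE 0.097). On day 4 it had 5.85, 9.04, 8.58 and 7.75 CPM with paclitaxel, against 10.3, 9.35, 10.3 and 5.64 CPM with vehicle, so that the sign was not the same on every day (-0.18, 0.070, 0.66 and 0.22 on days 4, 7, 11 and 23).

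The adaptors and regulators of motors were read from a list of 38 genes, all tested in DRG. None was called in DRG on any day or in the mean, and 15 of 38 were positive in the mean, with a median of -0.015, beside -0.0066 over all genes. Of the 25 mitotic partners (spindle, kinetochore and cytokinesis proteins) 17 were positive in the mean in DRG, with a median of 0.14, and none was called.

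**Figure D3:**
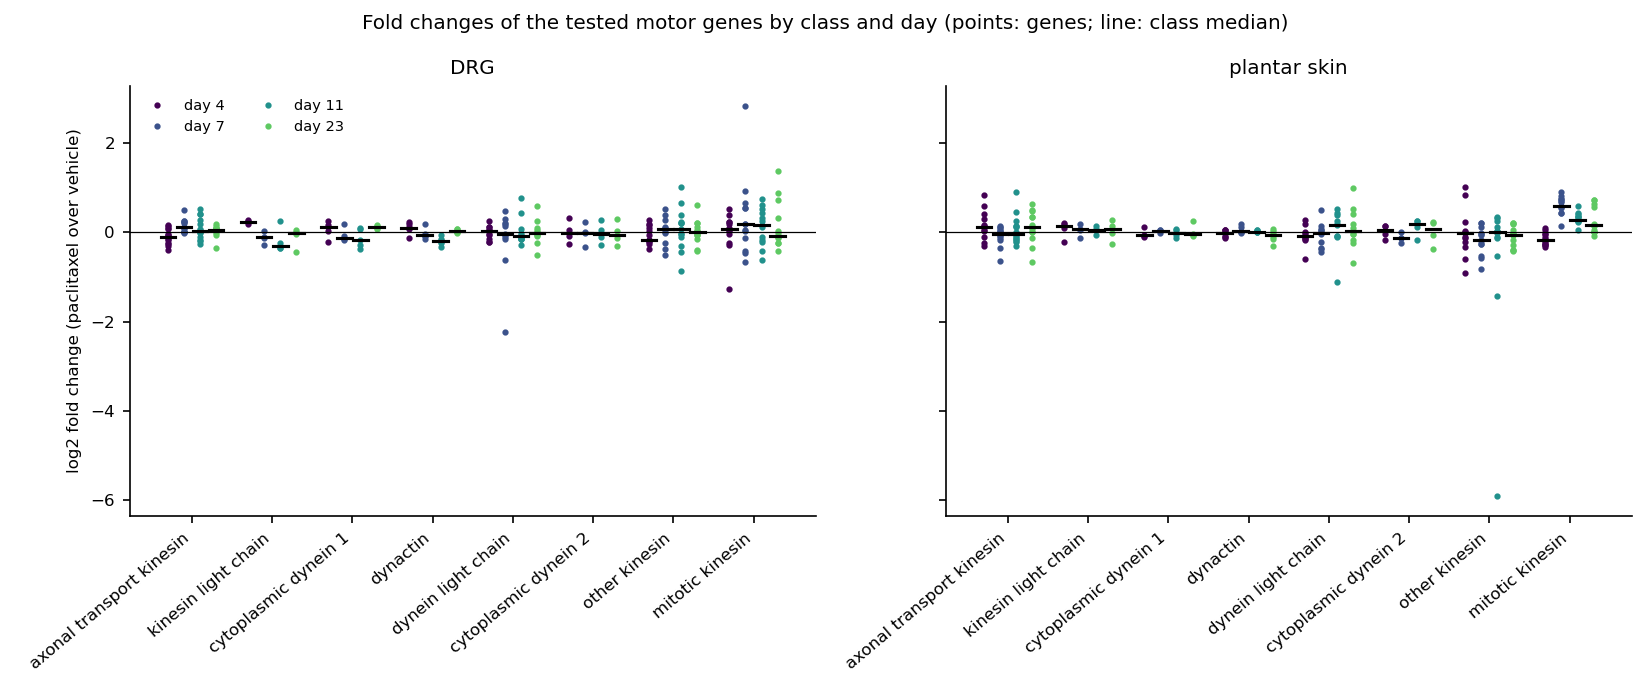
Log2 fold change with paclitaxel (y axis) of each tested motor gene (points) by role (x axis) and day (colour) in DRG (left) and plantar skin (right), with the median of each class as a black line. The skin mitotic kinesins have medians of -0.17, 0.58, 0.28 and 0.15 on days 4, 7, 11 and 23, while the axonal transport kinesins of DRG have medians of -0.10, 0.11, 0.023 and 0.054.

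In skin all 13 mitotic kinesins were positive in the mean over the days, with a median of 0.24, while the median over all genes tested was 0.0014, and 3 of them passed the test. The 13 were measured in the same mice, so their signs are not independent. Between mice of a group, the mean log2(CPM + 1) of the class had an SD of 0.253 in skin. The mean over the days called 5 of 69 motor genes, 4 higher and 1 lower, where 5.38% of the 18578 genes tested were called, 2.72% higher and 2.66% lower. A share of 5 of 69 is close to that background, so the count alone sets the motor genes apart from no others. Those higher were Kif14, Kif2c and Kif20a, mitotic kinesins all, and Klc4, a light chain of conventional kinesin. The 1 lower was Kif21b, a kinesin-4 of neurons. Without SKIN06 (vehicle, day 4) or SKIN10 (paclitaxel, day 4) the count fell to 1. On day 23 edgeR called 2, where 4.82% of all genes were called: Kif14 was higher (2.07% of all genes were) and Dctn6, a subunit of the pointed end of dynactin, was lower (2.75% were). None was called on day 4 (0.0108% of all genes), day 7 (0.00538%) or day 11 (0.269%), or for a difference between days (0%). At an unadjusted p under 0.05 there were 4, 12, 3 and 10 motor genes on days 4, 7, 11 and 23, 18 in the mean and 8 in the difference between days, out of 69. Of all genes tested 8.19, 6.15, 9.14 and 21.3% had such a p on those days, 19.1% in the mean and 10.54% in the difference between days. DESeq2 called 2 on day 7, Kif14 and Kif23, as did limma, and limma called 1 on day 4 (Kif3c) and 5 for a difference between days (Dynll2, Kif14, Kif1b, Kif23 and Kif3c). For DESeq2 and limma the shares of all genes called are not given here.

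The promoters of 4 mitotic kinesins are given because the genes of this class shared sequence elements that the choice by symbol did not use. All 13 of the class were positive in skin on days 7 and 11, and a link between the elements and these changes was not tested. Kif14 and Kif2c were called in skin, Kif23 (MKLP1) had the smallest p on day 7, and Kif11 (Eg5) is the motor that pushes the spindle poles apart. Each runs 5' to 3' on the strand of the gene, from 250 bases before to 50 after the annotated start (RefSeq, GRCm38.p6). The capitals mark the cell cycle homology region (CHR, TTTGAA) and the CCAAT box, on either strand, the kind of element found in many genes of mitosis. Position 0 is the annotated start.
Kif14: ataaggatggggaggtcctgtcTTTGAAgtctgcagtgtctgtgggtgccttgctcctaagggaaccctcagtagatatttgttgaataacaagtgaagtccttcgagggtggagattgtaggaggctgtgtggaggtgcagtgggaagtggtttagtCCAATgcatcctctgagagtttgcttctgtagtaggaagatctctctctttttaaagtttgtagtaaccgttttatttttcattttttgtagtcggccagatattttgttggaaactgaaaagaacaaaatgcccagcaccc
Kif2c: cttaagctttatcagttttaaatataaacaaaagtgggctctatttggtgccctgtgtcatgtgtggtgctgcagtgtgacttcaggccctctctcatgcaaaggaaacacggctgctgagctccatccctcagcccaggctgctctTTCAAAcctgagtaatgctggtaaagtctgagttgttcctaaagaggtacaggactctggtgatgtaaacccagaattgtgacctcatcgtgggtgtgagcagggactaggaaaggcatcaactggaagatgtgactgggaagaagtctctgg
Kif23: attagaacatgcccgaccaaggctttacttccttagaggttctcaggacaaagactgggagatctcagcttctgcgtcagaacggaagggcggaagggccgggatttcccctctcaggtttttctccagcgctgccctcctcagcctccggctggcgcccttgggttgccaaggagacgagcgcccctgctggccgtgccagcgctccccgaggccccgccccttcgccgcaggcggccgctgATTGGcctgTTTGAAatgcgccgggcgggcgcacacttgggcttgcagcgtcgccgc
Kif11: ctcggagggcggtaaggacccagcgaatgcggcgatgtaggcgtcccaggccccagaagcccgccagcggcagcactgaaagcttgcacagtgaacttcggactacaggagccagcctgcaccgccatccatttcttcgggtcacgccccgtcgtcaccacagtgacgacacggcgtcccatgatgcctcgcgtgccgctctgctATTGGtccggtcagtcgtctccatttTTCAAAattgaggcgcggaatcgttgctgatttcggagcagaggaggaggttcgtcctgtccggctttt

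These windows lie at chr1:136467598-136467897 (+, Kif14), chr4:117178723-117179022 (-, Kif2c), chr9:61946750-61947049 (-, Kif23) and chr19:37376132-37376431 (+, Kif11). The start that RefSeq gives lies 1505 bases inside the GENCODE gene for Kif14 and 3867 bases inside it for Kif2c, so the annotations differ on where these 2 genes begin, while for Kif23 and Kif11 it lies 25 and 21 bases before the GENCODE start. The CHR letters began at -228 in Kif14, -103 in Kif2c, 2 in Kif23 and -19 in Kif11, in Kif2c and Kif11 on the opposite strand. The CCAAT letters began at -92 in Kif14, -7 in Kif23 and -45 in Kif11, in Kif23 and Kif11 on the opposite strand, and were not found in this window of Kif2c. A promoter was on hand for 12 of the 13 mitotic kinesins, of which 11 held the CHR letters and 8 held both, where 17.9% of 32851 promoters of this length held the CHR letters, 37.4% CCAAT and 6.95% both. The exception without CHR letters was Kif18a. In 9 of the 12 a CHR began within 30 bases of the start, as in 3.19% of all promoters. Of 10 axonal transport kinesins with a promoter, 1 held the CHR letters, as did 1 of 4 dynactin subunits and 0 of 4 dynein 1 subunits. These are matches of letters, and no binding was measured here.

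Kif14, which acts in cytokinesis, had 12.2, 9.81, 8.64 and 10.1 CPM in paclitaxel skin on day 7, against 6.91, 5.31, 4.80 and 6.28 CPM in vehicle skin. On day 23 it had 9.49, 9.42, 9.26 and 8.91 CPM with paclitaxel, against 6.73, 4.75, 5.52 and 5.51 CPM with vehicle. All paclitaxel mice lay above all vehicle mice on both days. On day 4 it had 4.89, 9.95, 6.64 and 4.56 CPM with paclitaxel, against 7.10, 7.26, 9.58 and 7.15 CPM with vehicle, and on day 11 it had 9.55, 11.8, 12.4 and 13.8 CPM, against 9.96, 8.83, 9.58 and 11.5 CPM, so that the groups overlapped on these days. The log2 fold changes were -0.26 (SE 0.19), 0.81 (SE 0.19), 0.25 (SE 0.18) and 0.72 (SE 0.19) on days 4, 7, 11 and 23, with edgeR adjusted p of 0.230 on day 7 and 0.0242 on day 23, and the mean was 0.38 (SE 0.093, adjusted p 0.0141). The p of the difference between days was 0.00126 before adjustment and 0.246 after it with edgeR. The call in the mean held in every fit without 1 mouse, and that of day 23 was lost in 5 of 32, without SKIN50 or SKIN51 (vehicle, day 23) or without SKIN57, SKIN58 or SKIN59 (paclitaxel, day 23).

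Kif2c had 23.6, 18.2, 20.8 and 15.7 CPM with paclitaxel on day 7, against 12.8, 6.57, 10.47 and 12.2 CPM with vehicle, with no overlap. On day 23 it had 17.4, 15.8, 14.1 and 19.2 CPM with paclitaxel, against 10.01, 11.8, 14.3 and 9.24 CPM with vehicle, with 1 vehicle mouse inside the paclitaxel range. On day 4 the paclitaxel mice had a mean of 14.1 ± 4.88 CPM, against 13.3 ± 4.37 CPM for vehicle, and on day 11 a mean of 21.4 ± 1.94 CPM, against 17.8 ± 4.19 CPM (SD, n = 4 each). The log2 fold change was 0.90 (SE 0.25) on day 7, with an edgeR adjusted p of 0.397, and the mean over the days was 0.45 (SE 0.12, adjusted p 0.0292). The call in the mean was lost in 3 of the 32 fits that left out 1 mouse, those without SKIN06 (vehicle, day 4), SKIN10 or SKIN11 (paclitaxel, day 4).

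Kif20a (MKLP2), a motor of cytokinesis, had 52.5, 39.0, 35.4 and 37.5 CPM with paclitaxel on day 7, against 29.7, 18.5, 22.8 and 27.6 CPM with vehicle. On day 23 it had 37.0, 27.03, 29.1 and 40.3 CPM with paclitaxel, against 19.5, 23.1, 29.0 and 14.02 CPM with vehicle. The groups were apart on day 7 and overlapped on day 23. The mean over the days was 0.42 (SE 0.12, edgeR adjusted p 0.0323), a call lost in 9 of the 32 fits without 1 mouse. Of its exon bases 29.3% lie under exons of Cdc23 on the opposite strand. The strand setting of the counting is not given in the sources used here, so how reads there were counted is not known.

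On day 7 all 13 mitotic kinesins were positive with a median of 0.58, beside -0.011 over all genes tested, and none was called by edgeR. Kif23, a subunit of centralspindlin, had 48.2, 43.8, 36.7 and 31.9 CPM with paclitaxel, against 23.9, 21.5, 21.4 and 28.6 CPM with vehicle (log2 fold change 0.75, SE 0.17, p 0.000121 before adjustment, edgeR adjusted p 0.188). Kif11 had 37.6, 37.8, 29.9 and 33.4 CPM with paclitaxel, against 25.6, 19.1, 23.2 and 26.9 CPM with vehicle (0.55, SE 0.18, edgeR adjusted p 0.567). In both genes every paclitaxel mouse exceeded every vehicle mouse. The same held for 10 of the 69 motor genes on day 7, where it held for 2.72% of all genes tested, and 9 of the 10 were mitotic kinesins. On day 23 it held for 1 motor gene, Kif14, where 6.24% of all genes did so. The mitotic kinesins summed to 234 to 314 CPM with paclitaxel on day 7, against 145 to 198 CPM with vehicle. Over all 32 skin libraries the median was 212 CPM (127 to 314), so the vehicle mice of day 7 were all below it. SKIN36 (vehicle, day 11) had 314 CPM, within the day 7 paclitaxel range. How far low vehicle values made up the day 7 change was not tested.

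The smallest day 7 changes of the class were those of Kif18a, a kinesin-8 that damps chromosome movements (0.14, SE 0.32), of Kifc5b (0.43, SE 0.29), whose reads may be hard to tell apart from those of its near copy Kifc1 (0.58, SE 0.24), and of Kif4 (0.43, SE 0.19). The spindle kinesin Kif15, the chromokinesin Kif22, Kif18b and Kif20b, another motor of cytokinesis, had 0.68 (SE 0.18), 0.58 (SE 0.19), 0.57 (SE 0.23) and 0.71 (SE 0.27). On day 7 the 13 lay between 0.14 and 0.90, and on day 23 between -0.084 and 0.73. On day 23 Kif14, Kif20b, Kif20a and Kif2c stood at 0.72, 0.73 (SE 0.27), 0.64 (SE 0.24) and 0.55 (SE 0.25), whereas Kif23, Kif15, Kifc1 and Kif22 stood at 0.0092, -0.00094, 0.013 and 0.052. Only Kif14 of these was called. On day 4 the class had a median of -0.17 and 2 of 13 were positive, and on day 11 a median of 0.28 with 13 of 13 positive. Without 1 mouse the medians ranged from -0.41 to -0.040 on day 4 and from 0.22 to 0.45 on day 11, and with the muscle covariate that of day 4 was 0.0025. A test of the difference between days called none of them with edgeR.

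**Figure D4:**
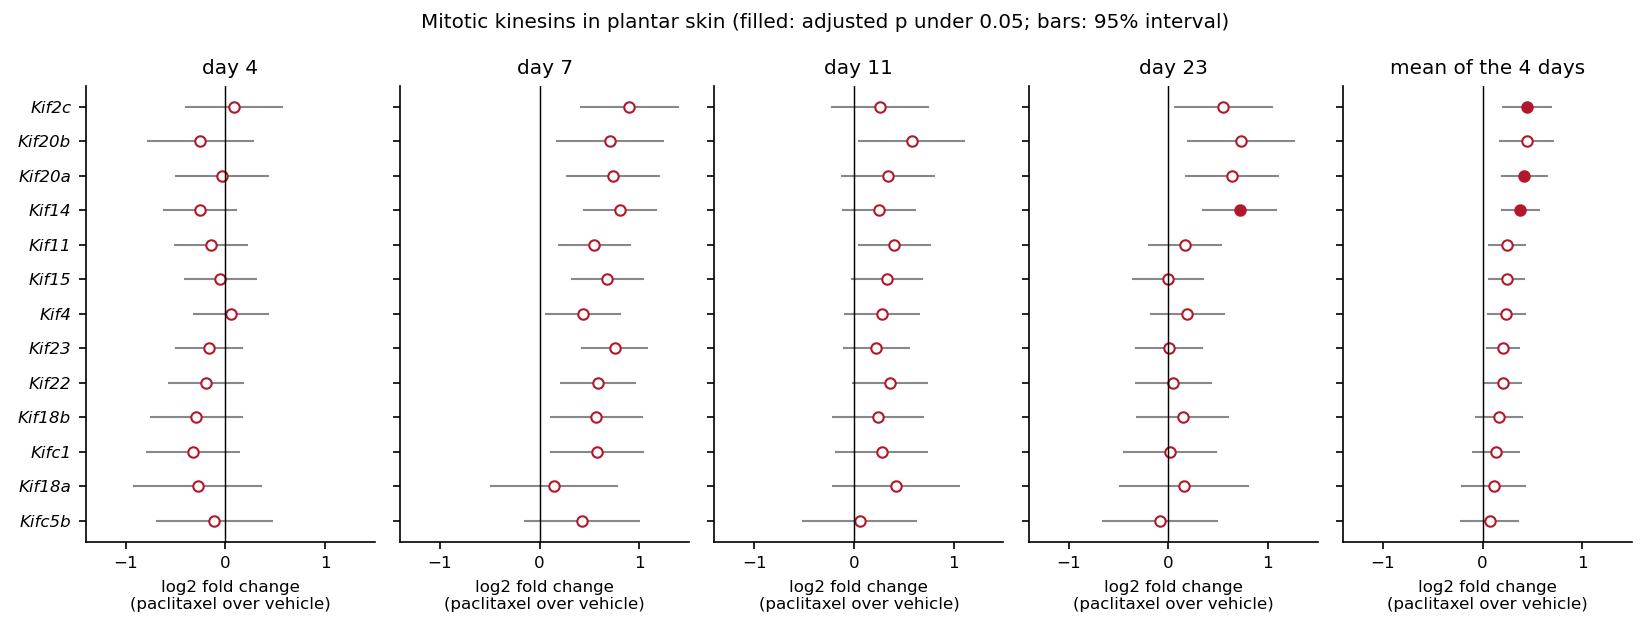
Log2 fold change with paclitaxel (x axis, with 95% interval) of the 13 mitotic kinesins in plantar skin on each day and as the mean of the days. Filled points had an edgeR adjusted p under 0.05: Kif14 on day 23 and Kif2c, Kif20a and Kif14 in the mean. The 13 points of day 7 all lie right of 0.

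**Figure D5:**
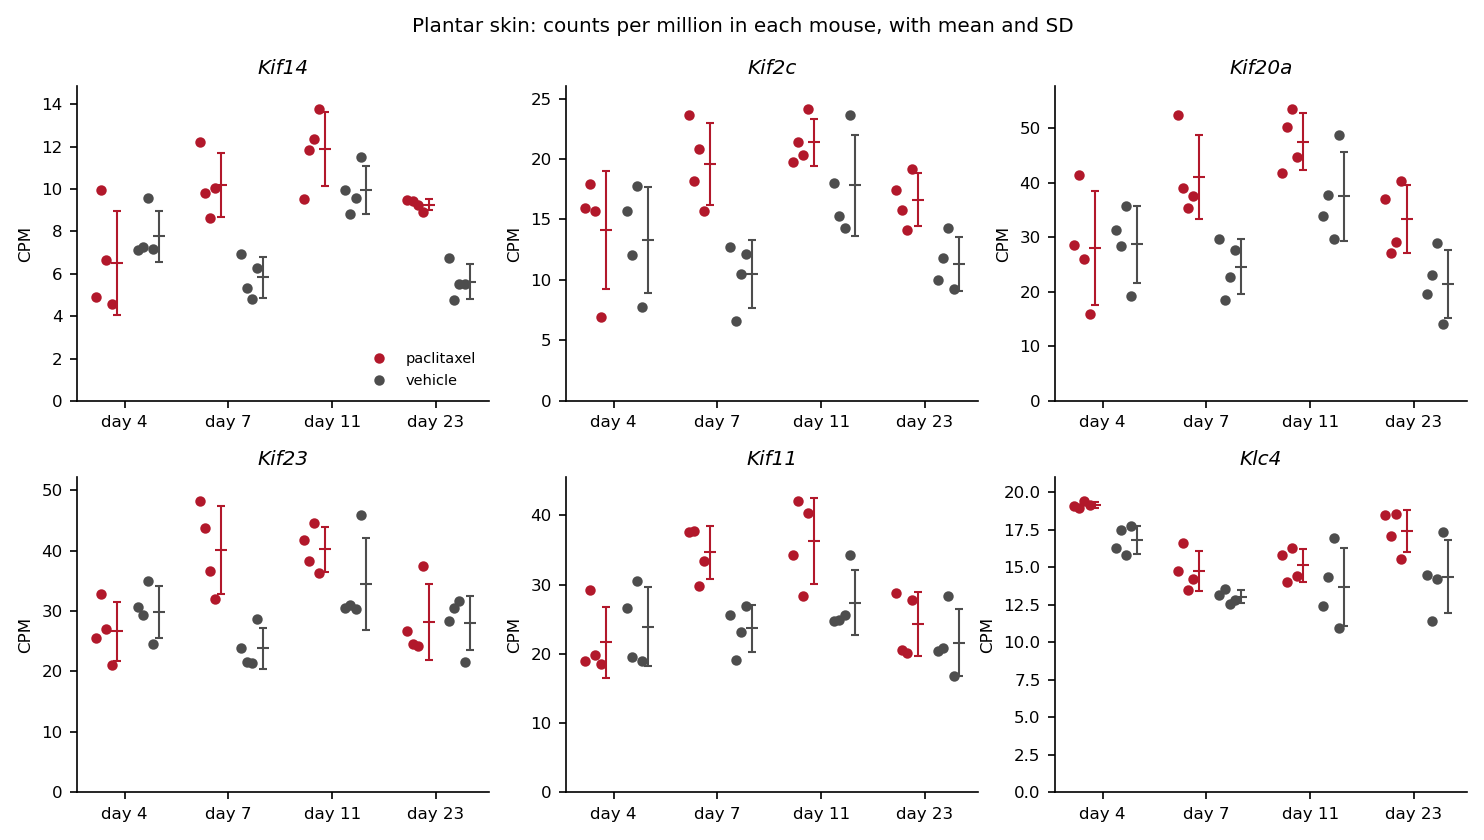
CPM (y axis) in each skin library by day (x axis), paclitaxel in red and vehicle in grey, with mean and SD of 4 mice. For Kif14, Kif2c, Kif20a, Kif23 and Kif11 all paclitaxel points of day 7 lie above all vehicle points, and for Kif14 those of day 23 do as well.

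Of the 25 mitotic partners, 25 were positive in the mean over the days in skin, with a median of 0.25, and 5 were higher with an adjusted p under 0.05, where 2.72% of all genes tested were. They were Cenpe, a kinesin of the kinetochore that the symbol rule does not take (0.53, SE 0.10, edgeR adjusted p 0.00216), Tpx2, a spindle assembly factor (0.46, SE 0.097), the checkpoint kinase Bub1b (0.46, SE 0.098), and Mki67, the proliferation marker Ki-67 (0.37, SE 0.085), the fifth being Cenpf (0.36, SE 0.089). On day 7 all 25 were positive with a median of 0.55, 21 of them with every paclitaxel mouse above every vehicle mouse (2.72% of all genes), and none was called. Measured in the same mice as the mitotic kinesins, the partners are not independent of them or of each other. On day 23 Cenpe was called (0.84, SE 0.20), where 2.07% of all genes were higher.

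Markers of other cell types moved as well. On day 7 the summed basal keratinocyte markers were 14225 to 15527 CPM with paclitaxel, against 13187 to 15363 CPM with vehicle, and the skeletal muscle markers 565 to 3257 CPM, against 347 to 10165 CPM. On day 23 the basal keratinocyte markers were 10248 to 13127 CPM with paclitaxel, against 12889 to 17778 CPM with vehicle, with 2 of 7 lower (Itgb4 and Krt15) and 7 of 7 negative, and the fibroblast markers were 5219 to 7846 CPM with paclitaxel, against 1704 to 3328 CPM with vehicle, with 3 of 6 higher. The macrophage markers had 1 of 10 higher and 10 of 10 positive. The muscle markers on day 23 were 18337 to 33522 CPM with paclitaxel, against 52.3 to 49971 CPM with vehicle, 0 of 16 called. The skin library with the most muscle, SKIN52 (vehicle, day 23, 49971 CPM), had the lowest summed mitotic kinesins of its group, 128 CPM. On day 4 the same held for SKIN12 with paclitaxel (27161 CPM of muscle and 127 CPM of mitotic kinesins) and SKIN08 with vehicle (22932 and 142 CPM). Not every library with much muscle was so low. The paclitaxel libraries of day 23, at 18337 to 33522 CPM of muscle, all had higher sums of mitotic kinesins than these. The part of muscle in these results was tested only as a covariate: with it, the day 7 median of the mitotic kinesins was 0.55 and that of day 23 was 0.35, but Kif14 on day 23 was no longer called (0.71, adjusted p 0.0749, beside 0.72 without the covariate). In the mean over the days the basal marker Krt15 (-0.36, edgeR adjusted p 0.0418) and the suprabasal marker Lor (-0.44, 0.0376) were lower and the neuronal marker Nefl (0.0460), at or near 0 counts in most skin libraries, was higher, and Lor was also lower on day 23 (-0.89, 0.0399). The part of the other cell types was not tested.

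Klc4 (chr17:46630624-46646022, -) had 19.1, 18.98, 19.4 and 19.2 CPM with paclitaxel on day 4, against 16.3, 17.5, 15.8 and 17.8 CPM with vehicle, and 18.5, 17.1, 18.6 and 15.6 CPM on day 23, against 14.5, 11.5, 14.2 and 17.4 CPM. The groups were apart on day 4 and overlapped on day 23. Its mean change was 0.20 (SE 0.057, edgeR adjusted p 0.0402). The call was lost with the muscle covariate (0.18, adjusted p 0.0940), without a filter on low counts (0.20, adjusted p 0.124) and in 26 of the 32 fits that left out 1 mouse. The other light chains had mean changes of 0.052 (Klc1), 0.043 (Klc2) and -0.094 (Klc3), none called.

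Kif21b (chr1:136131389-136177998, +) had 6.57, 6.68, 5.80 and 7.22 CPM with paclitaxel on day 23, against 13.7, 7.36, 8.69 and 12.1 CPM with vehicle, and 5.21, 8.16, 7.69 and 10.6 CPM on day 4, against 8.65, 9.64, 12.2 and 8.97 CPM. The paclitaxel mice were all below the vehicle mice on day 23 and overlapped with them on day 4. The mean change was -0.41 (SE 0.12, edgeR adjusted p 0.0418), lost in 19 of the 32 fits without 1 mouse and without the filter (0.0714). The neuronal motors Kif1a, Kif5a and Kif5c, far lower in skin than in DRG, had mean changes of 0.12 (SE 0.19), 0.079 (SE 0.085) and 0.37 (SE 0.22) in skin, none called.

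Dctn6 (chr8:34090420-34108796, -) had 44.4, 50.9, 46.7 and 48.6 CPM with paclitaxel on day 23, against 61.2, 61.0, 63.3 and 49.8 CPM with vehicle, where the last vehicle value was SKIN52, the library with the most muscle. It was lower on that day (-0.30, SE 0.082, edgeR adjusted p 0.0298), and on days 4, 7 and 11 the fold changes were -0.11, -0.018 and -0.0059. The call was lost with the muscle covariate (-0.24, adjusted p 0.168), in the 8 libraries of the day alone (-0.32, adjusted p 0.154) and without the filter (-0.29, adjusted p 0.120). Without SKIN52 the motor genes called on day 23 were 10, which include both calls of the full set, and without SKIN50, SKIN51, SKIN57 or SKIN59 there were 0. How many of all genes were called in these fits is not given here, so the counts do not set motor genes apart. The other dynactin subunits had day 23 changes of 0.079 (Dctn1), -0.11 (Dctn2), -0.16 (Dctn3), -0.025 (Dctn4) and 0.018 (Dctn5), none called. Of Dctn6's exon bases 11.8% lie under an antisense gene, and how reads there were counted is not known.

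The motor adaptors and regulators in skin gave 1 higher and 2 lower of 38 in the mean over the days, with a median of 0.013, where 2.72% of all genes were higher and 2.66% lower. Nde1, a dynein regulator that also acts at the kinetochore, was higher (0.23, SE 0.040, edgeR adjusted p 0.000687), and its close relative Ndel1 (-0.29, SE 0.063) and the adaptor Bicdl2 (-0.28, SE 0.083) were lower. On day 23 Nde1 was again higher (0.32, SE 0.079), and Ndel1 (-0.50, SE 0.13), Bicdl1 (-0.66, SE 0.16) and Bicdl2 (-0.68, SE 0.17) were lower, where 2.07% of all genes were higher and 2.75% lower.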

How the data were processed

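RNA-seq of DRG and plantar skin (32 mice per tissue) was analysed from the raw gene counts that the authors deposited. They trimmed the single-end reads with Trimmomatic, aligned them with STAR to mouse genome m38 with Ensembl annotation, and counted reads per gene; the strand column used is not given in the sources used here. The methods describe ribosomal RNA depletion and the labels oligo-dT. Of each raw count table, 28 empty columns were left out, as were rows without a gene name (0.0132% of DRG and 0.0286% of skin counts). The authors' normalised tables were not used here. Within a tissue the libraries are separate mice, with the runs of a mouse combined. The same numbers occur in both tissues with the same treatment and day. The main comparison of DRG with skin took the libraries as independent. For DRG09 one run is labelled vehicle, day 23, and the other paclitaxel, day 4, while the paper lists both as paclitaxel, day 4. The column was used as paclitaxel, day 4.

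Genes were tested with edgeR 4.0.16 (R 4.3.3; TMM, filterByExpr, quasi-likelihood test, 8 groups per tissue, Benjamini-Hochberg over all genes tested, threshold 0.05), and fits were tested on simulated data. Alternatives were DESeq2 1.42.0 and its size factors, limma 3.58.1 with quality weights, no filter, the 8 libraries of a day alone, a skeletal muscle covariate, libraries left out and a replicate block. The text names the called motor genes, the mitotic kinesins of skin on day 7, the 5 smallest p of DRG and the main axonal motors. The members and lists were chosen with earlier results of these data known. Sequences are from RefSeq (GRCm38.p6, 52 of 82 genes matched), gene positions from GENCODE. No protein sequences were used here.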

Additional observations from a re-analysis of the deposited data

Results flagged for a closer look

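In 11 of 144 groups of 4 mice, 1 library lay far from the other 3, by the ratio of its gap to the whole range (Dixon's test at the 95% level). The groups were those of the 10 DRG and 8 skin genes described per mouse, and chance flags about 1 group in 20.

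In DRG, DRG09 (paclitaxel, day 4) had 2133 CPM of Klc1 against 1151 to 1309 CPM in the other 3 mice, and 42.1 CPM of Kif13a against 65.6 to 67.4 CPM. DRG34 (vehicle, day 11) had 5.73 CPM of Kif17, where the others had 3.50 to 3.87 CPM. These are the libraries with the low mitochondrial shares, whose part in these values was not tested. DRG25 (paclitaxel, day 7) had 1079 CPM of Kif5c, with 978 to 983 CPM in the others. DRG52 (vehicle, day 23) had 976 CPM of Kif5a, with 1206 to 1245 CPM in the others, and DRG18 (vehicle, day 7) had 12.1 CPM of Dync2h1, with 15.02 to 15.2 CPM in the others.

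In skin, SKIN10 (paclitaxel, day 4) had 29.3 CPM of Kif11, where the other 3 mice had 18.6 to 19.8 CPM. SKIN07 (vehicle, day 4) had 9.58 CPM of Kif14, with 7.10 to 7.26 CPM in the others. SKIN36 (vehicle, day 11) was high in 2 mitotic kinesins, with 45.9 CPM of Kif23 against 30.3 to 31.0 CPM and 34.4 CPM of Kif11 against 24.8 to 25.6 CPM, and had the highest summed mitotic kinesins of its group, 314 CPM. SKIN52 (vehicle, day 23) had 49.8 CPM of Dctn6, with 61.0 to 63.3 CPM in the others.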

How the results depend on the processing

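In DRG, 0 motor genes were called under every alternative except 1, Kif13a on day 11, when DRG09 was left out (range over single mice 0 to 1). Not called in any fit, Klc1 on day 4 was -0.015 without DRG09 and DRG34, and without the libraries above 10 CPM of Krt10 Kif1a and Kif13a on day 23 were -0.025 and 0.063. In skin, DESeq2 called 2 on day 7. With limma there were 1 on day 4, 2 on day 7, 11 on day 23, 10 in the mean over days and 5 for a difference between days. Without the filter there were 1 on day 23 and 3 in the mean, and with the muscle covariate or the 8 libraries of the day alone there were 0 on day 23; the cause was not tested, but the last fit has fewer samples. Leaving out 1 mouse gave 0 to 10 on day 23 and 1 to 6 in the mean. The shares of all genes called in these alternative fits are not given here, so the counts do not set motor genes apart. Kif20b, not called in the mean (adjusted p 0.0516), was called by edgeR with DESeq2 size factors (0.0482), DESeq2 (0.0174), limma (0.0152) and with the muscle covariate (0.0411). Kif14 and Kif23 on day 7 had adjusted p of 0.0235 and 0.0123 with DESeq2, and 0.0269 and 0.0219 with limma. Kif14 on day 23 had 0.0762 in the libraries of the day alone. The mean change of Kifc5b, 0.072 and not called, was -0.010 without SKIN10 and -0.010 to 0.13 over all fits without 1 mouse. The median of the mitotic kinesins in skin stayed between 0.55 and 0.69 on day 7, but on day 23 it was -0.055 with limma and -0.0042 to 0.30 without 1 mouse. The comparison of DRG with skin called 66 motor genes, 65 to 68 without 1 mouse, and 66 with a replicate block for the mouse number. DRG and skin libraries carry the same numbers, and it is not stated whether these mark the same mouse. Of 16 pairs by number, 0 had a correlation of deviations over 0.1 (-0.143 to 0.0863). This cannot decide it, since the tissues of a mouse need not vary together. No paired analysis was possible because the paclitaxel and vehicle mice share no number, within a tissue. About 1 CPM is the level at which the DRG values of Kif24 stand, and counting limits them.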
